A study of Mus musculus with 157 samples.

Results

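The major histocompatibility complex class II genes and their regulator were described in the livers of 157 male mice by 6 genes of the 23176 measured. The genes were taken by name and identifier. H2-Aa (ENSMUSG00000036594_at), H2-Ab1 (ENSMUSG00000073421_at), H2-Eb1 (ENSMUSG00000060586_at) and H2-DMa (ENSMUSG00000037649_at) lie in the H2 region of chromosome 17. Cd74 (ENSMUSG00000024610_at) is on chromosome 18 and Ciita (ENSMUSG00000022504_at) on chromosome 16. All 6 had a value in every mouse. No measured value entered their choice, but results on these mice were already known when they were chosen.

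Class II molecules are surface proteins that show peptides, cut from proteins a cell has taken up, to CD4+ T cells. Each is a pair of an alpha and a beta chain that meets the invariant chain, the product of Cd74, while it is being assembled. The invariant chain is later cut down to a fragment in the groove, and the H2-DM protein exchanges that fragment for other peptides. Transcription of these genes depends on Ciita, a co-activator that is recruited to promoters by proteins bound at conserved X and Y boxes. In liver, class II genes are known mainly from Kupffer cells, dendritic cells and B cells, and hepatocytes carry little of them at rest. The chains of the classical molecules are among the most variable proteins between inbred mouse strains.

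The mice belonged to the pre-Collaborative Cross, partly inbred strains bred from 8 founder strains (C57BL/6J, NZO/H1LtJ, WSB/Ei, A/J, CAST/Ei, 129S1/SvImJ, PWK/Ph and NOD/LtJ). The series text gives 4 to 11 generations of matings between siblings. Each strain gave 1 male, killed at 12 to 15 weeks of age, and the founders themselves were not analysed here. All mice had been through a protocol with alcohol and exercise, and the labels do not say which mouse received which. Kill dates formed 10 cohorts, with 20, 21, 11, 5, 6, 10, 37, 22, 12 and 13 mice in cohorts 1 to 10. RNA was measured on 1 Affymetrix array per mouse in 8 hybridization batches of 11 to 24 arrays.

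The deposited value of a gene in a mouse is a score that gives the rank of that mouse among the 157, stretched to the shape of a normal curve. A score of 0 is the middle mouse and 1 unit is about 1 SD over the mice. The lowest possible score was -2.49 and the highest 2.49. Such scores hold no expression level and no fold change, so nothing here says how abundant a class II transcript was, or which of the 6 was the most abundant. Markers of liver and immune cell types could not be matched to the identifiers of the file, so the tissue label and the share of immune cells were not checked.

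The promoters of H2-Aa, the alpha chain of the I-A molecule, and of H2-Eb1, the beta chain of the I-E molecule, are shown because they hold letters of the X and Y boxes. Promoters were at hand for 3 of the 6 genes, H2-Aa, H2-Eb1 and H2-DMa. Those of H2-Ab1, Cd74 and Ciita were not searched. RefSeq gives them on GRCm38.p6 at chr17:34287824-34288073 on the minus strand for H2-Aa and at chr17:34305617-34305866 on the plus strand for H2-Eb1. Both are printed 5′ to 3′ up to the base before the transcript start, and capitals mark a match to the X box core, CTNGCAACT, and then to the Y box, CTGATTGG.
H2-Aa: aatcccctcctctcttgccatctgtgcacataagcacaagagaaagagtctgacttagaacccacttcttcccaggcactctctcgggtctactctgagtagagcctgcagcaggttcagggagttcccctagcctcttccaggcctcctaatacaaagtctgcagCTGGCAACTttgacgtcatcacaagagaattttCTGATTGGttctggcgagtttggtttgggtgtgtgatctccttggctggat
H2-Eb1: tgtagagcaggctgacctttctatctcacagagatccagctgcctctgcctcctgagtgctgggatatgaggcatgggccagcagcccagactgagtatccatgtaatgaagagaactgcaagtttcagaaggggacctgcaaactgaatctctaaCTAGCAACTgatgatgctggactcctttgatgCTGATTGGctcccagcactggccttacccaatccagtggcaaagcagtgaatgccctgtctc
The X box core starts at -84 in H2-Aa and -94 in H2-Eb1, and the Y box at -51 and -62, with 24 and 23 bases between the boxes. On either strand, CTGATTGG was present in 3.83% and CTNGCAACT in 0.779% of the 32851 RefSeq promoters searched. A longer X box motif, the one first searched, was present on either strand in 4.29% of promoters and matched in none of the H2-Aa, H2-Eb1 and H2-DMa promoters. The letters of the X box core were chosen only after these promoters had been read. The Y box holds ATTGG, a shorter motif present in 33.8% of promoters. RefSeq lists 2 starts for H2-DMa, the alpha chain of the H2-DM exchange protein, and neither 250-base stretch held CTGATTGG or CTNGCAACT. A match is a description of letters only and was not tied to a measurement of binding.

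The 6 genes rose and fell together across the mice, and all 15 pairs had a positive correlation. The closest pair was that of the 2 chains of the I-A molecule, H2-Aa and H2-Ab1, with r = 0.941 (95% interval 0.920 to 0.957, n = 157 mice, Spearman rho 0.941). The mouse highest for H2-Aa, replicate 7 of cohort 2, had scores of 2.49 for H2-Aa, 2.49 for H2-Ab1, 2.24 for H2-Eb1, 2.49 for H2-DMa, 2.08 for Cd74 and 2.24 for Ciita. The mouse lowest for H2-Aa, replicate 17 of cohort 2, had scores of -2.49, -1.64, -0.902, -0.938, -1.95 and -0.0874 in the same order of genes. The first mouse was thus near the top for every gene, while the second was at the bottom for H2-Aa and near the middle for Ciita. In a whole-liver sample, a smaller number of class II-bearing cells and less class II RNA per cell cannot be told apart.

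Linkage to H2 alone did not order the correlations. H2-Aa and Cd74, the invariant chain gene on another chromosome, had r = 0.893 (0.856 to 0.920), and H2-Ab1 and Cd74 had r = 0.860 (0.813 to 0.896). By contrast, H2-Aa and H2-Eb1, neighbours with no other protein-coding gene listed between them by RefSeq, had r = 0.646 (0.545 to 0.729). For H2-Aa the step down from Cd74 to H2-Eb1 was a difference in r of 0.246 (adjusted p = 0.0036, two-sided permutation test that exchanged the partners' scores within mice, 24 such steps tested). Pairs of H2-linked genes had a median r of 0.599 (range 0.331 to 0.941, 6 pairs) and pairs with 1 H2-linked gene a median of 0.467 (0.295 to 0.893, 8 pairs). The 2 ranges overlapped almost wholly, and the single pair with no H2-linked gene, Cd74 and Ciita, had r = 0.394. The pairs of Ciita with the H2-linked genes all fall in the group with the lower median. The groups of pairs were not tested against each other.

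**Figure D1:**
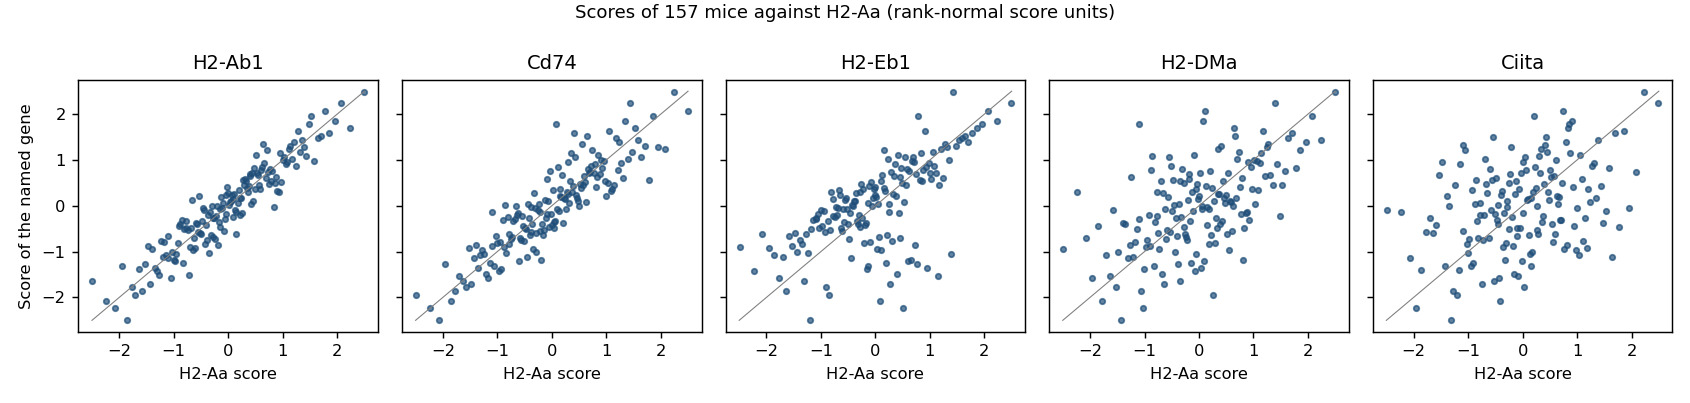
Scores of H2-Ab1, Cd74, H2-Eb1, H2-DMa and Ciita (y axes, score units) against the H2-Aa score (x axes, score units), 1 point per mouse, 157 mice, with a grey line where both scores are equal. H2-Ab1 and Cd74 follow a narrow line (r = 0.941 and 0.893), H2-Eb1 follows it with a set of mice lying below, and H2-DMa and Ciita scatter more widely.

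Each pair differed from no correlation in a two-sided permutation test of 100000 resamples. The p-value was 1e-05, the smallest these resamples can give, for 13 of 15 pairs. The largest, for H2-Eb1 and Ciita, was 2.2e-04, as was its Benjamini-Hochberg adjusted value over the 15 relations. Spearman's rho was between 0.229 and 0.941 over the 15 pairs, with adjusted permutation p-values of at most 0.00421. Without the 2 mice farthest from the median of the first gene of each pair, r was 0.270 to 0.940.

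Positive correlations were found in both periods of collection and, for most pairs, in the array batches taken alone. Among the 84 mice of cohorts 7 to 10 the 15 values of r were 0.287 to 0.947, and among the 73 mice of cohorts 1 to 6 they were 0.267 to 0.941. Within the 8 batches, r of H2-Aa and H2-Ab1 was 0.921 to 0.974 and r of H2-Aa and Cd74 was 0.853 to 0.929. The lowest within-batch values belonged to Ciita, at -0.0405 with H2-DMa in batch 3 and -0.0168 with H2-Eb1 in batch 5. The other 13 pairs were positive in all 8 batches. Not all of them passed the permutation test there: between 4 (batch 7) and 14 (batch 4) of the 15 pairs did.

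**Figure D2:**
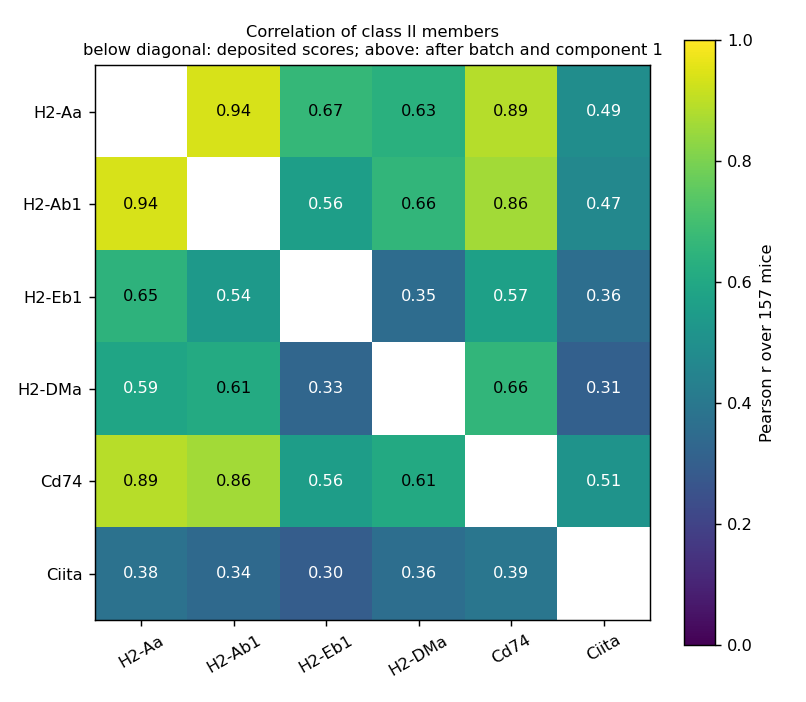
Pearson correlation r (colour, no unit) of the 15 gene pairs over 157 mice, from the deposited scores below the diagonal and after hybridization batch and the leading component of all other genes were taken out above it. Below the diagonal, the pairs among H2-Aa, H2-Ab1 and Cd74 lie at 0.860 to 0.941, and the 5 pairs with Ciita lie at 0.295 to 0.394.

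The same links were tested against all genes of the table. A limma model fitted to all 23175 other genes, with hybridization batch as a covariate, called 1.12% of them positively associated with H2-Aa at an adjusted p under 0.05. All 5 other class II genes were among these 259. The figures were 1.09% for H2-Ab1 and 1.73% for Cd74, each again with the 5 others called. H2-Eb1 had 0.371% and H2-DMa 0.872% of genes called, also with all 5 others. Of these calls, the one between H2-Eb1 and Ciita had an adjusted p of 0.0313 from the limma slope of Ciita on H2-Eb1, of 0.0524 without the batch covariate and of 0.0528 with batch and cohort. A single axis held 65.1% of the variance of the 6 genes' scores.

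H2-Aa, H2-Ab1 and Cd74 formed the tight core of the set. H2-Ab1 was within 1 score unit of H2-Aa in all 157 mice, with an SD of the gap of 0.334. Cd74 lay more than 1 unit from H2-Aa in 3 mice, with an SD of the gap of 0.452. Of the 39 mice highest for H2-Aa, 30 were also among the 39 highest for H2-Ab1 and 29 among the 39 highest for Cd74. No mouse was among the 39 highest for one of these genes and among the 39 lowest for another. For H2-Aa, the difference in r between its partners H2-Ab1 and Cd74 was 0.0488 and did not pass the test (adjusted p = 0.554, permutation test within mice). No gene outside the 6 had a higher r with H2-Aa than H2-Ab1, Cd74 or H2-Eb1 had.

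Because the core genes move so closely, models with 2 genes at once were used to ask what one adds to the other. With Cd74 in the limma model, 0.0173% of 23174 genes were positively called for H2-Ab1, and none of the class II genes was among them. H2-Aa had a slope of 0.67 ± 0.159 (SE) with an adjusted p of 0.0508 there. Its own residual spread was smaller than the spread limma shares among genes, and with its own spread the SE was 0.0486 and the adjusted p 4.43e-24. With H2-Ab1 in the model, 0.466% of genes were positively called for Cd74 and again no class II gene. The slope of H2-Aa on Cd74 was then 0.31 (adjusted p = 0.595 by limma, 3.81e-06 with its own spread). The calls in these models thus turned on which spread was used.

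H2-Eb1 departed from the core in one direction more than the other. It lay more than 1 unit below H2-Aa in 19 mice and more than 1 unit above it in 8. Beyond 1.5 units the counts were 11 below and 1 above. Of the 25 mice with H2-Aa above 1, 22 had H2-Eb1 above 0.5 and 2 had it below -0.5. Of the 25 mice with H2-Aa below -1, none had H2-Eb1 above 0. Mice low for the core were therefore not high for H2-Eb1, while some mice high for the core were low for it.

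The same lopsided pattern was seen against H2-Ab1 and Cd74. These follow H2-Aa closely in the same mice, so the counts below are not independent of those above. Of the 39 mice lowest for H2-Eb1, 10 were among the 39 highest for H2-Ab1 and 8 among the 39 highest for Cd74. No mouse among the 39 highest for H2-Eb1 was among the 39 lowest for H2-Aa, H2-Ab1 or Cd74. Replicate 28 of cohort 7 had the widest such gap, with -2.24 for H2-Eb1 beside 0.514 for H2-Aa, 1.11 for H2-Ab1, 0.478 for Cd74, -0.626 for H2-DMa and 0.626 for Ciita. The 19 mice came from 7 of 8 batches, 8 of 10 cohorts and all 6 blocks of strain numbers. These tallies leave out the number of mice per group, and the spread over cohorts was not even. Cohort 7, the largest with 37 mice, gave only replicate 28, while cohort 9, with 12 mice, gave replicates 2, 6 and 12. Whether the groups differed in their share of such mice was not tested. The labels do not give the founder alleles at H2. Whether the array probes read all founder alleles of H2-Eb1 alike was not tested, so a low score need not mean less RNA.

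H2-Eb1 was the 1 class II gene that limma called for H2-Aa beyond H2-Ab1 with the spread it shares among genes. With each gene's own spread there were 2, as Cd74 was called too. The call therefore does not set H2-Eb1 apart from Cd74. With H2-Ab1 in the limma model, 0.00863% of 23174 genes were positively called for H2-Aa, which is 2 genes, and H2-Eb1 was one of them. Its slope of 1.23 ± 0.239 (SE) ranked 1 among all genes (adjusted p = 0.00298, limma). With H2-Aa in the model instead, 0.0777% of genes were positively called for H2-Eb1 and none of the class II genes was among them. The gene ranked 1 there was ENSMUSG00000073411, which has no symbol in the tables used here (slope 0.78 ± 0.106, adjusted p = 3.18e-09, limma). That gene had r = 0.731 with H2-Eb1, above any of the class II genes, and r = 0.432 with H2-Aa and 0.148 with H2-DMa. These last 2 models were chosen after the correlations had been seen.

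H2-DMa followed the core more loosely. Its r was 0.611 with H2-Ab1, 0.607 with Cd74 and 0.586 with H2-Aa, against 0.331 with H2-Eb1. It lay more than 1 unit below H2-Aa in 22 mice and more than 1 unit above it in 20. Beyond 1.5 units the counts were 4 below and 9 above. Within batches its r with Cd74 was 0.573 to 0.695. Replicate 8 of cohort 7, for example, had -1.95 for H2-DMa beside 0.257 for H2-Aa, -0.159 for H2-Ab1 and -0.0635 for Cd74. The steps in r between neighbouring partners, taken in order of r, did not pass the permutation test (smallest adjusted p = 0.0716). The wider difference between H2-Ab1 and H2-Eb1 as its partners was not tested.

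Ciita, the regulator, had the lowest mean r with the 5 others of the set, 0.355. Its r was 0.394 with Cd74, 0.378 with H2-Aa, 0.363 with H2-DMa, 0.343 with H2-Ab1 and 0.295 with H2-Eb1. None of the steps between these neighbours passed the test (smallest adjusted p = 0.797, permutation test within mice). Ciita lay more than 1 unit below H2-Aa in 32 mice and more than 1 unit above it in 27. Replicate 7 of cohort 1 had -1.11 for Ciita beside 1.64 for H2-Aa, 1.48 for H2-Ab1 and 1.07 for Cd74. Replicate 13 of the same cohort had 0.963 for Ciita beside -1.48 for H2-Aa and -1.70 for Cd74.

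Ciita also differed from the others in how many genes of the whole table it followed. The limma model called 22.6% of 23175 genes positively associated with Ciita, so the 5 class II genes among them say little by themselves. Of the genes outside the set, 482 had a higher r with Ciita than Cd74 had. Much of the table shared a single axis: the leading principal component of all genes but the 6 held 12.1% of the variance. Ciita had r = 0.504 with it (rho 0.490, adjusted permutation p = 6e-05 over 12 relations), and its 8 within-batch values were 0.289 to 0.754. The median absolute r of all genes was 0.270.

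Of the other 5 class II genes, H2-DMa alone passed the test against that axis. H2-DMa had r = 0.203 with the component (rho 0.211, adjusted permutation p = 0.0296), with within-batch values of -0.221 to 0.484. A larger absolute r with the component than that of H2-DMa was found in 61.8% of all genes, so passing does not set it apart. For Ciita that share was 15.8%. H2-Aa had r = -0.121, H2-Ab1 -0.144, Cd74 -0.117 and H2-Eb1 -0.00498, and none of these 4 passed the permutation test. The 2 mice farthest out on the component were the 2 whose arrays had the widest scores over all genes, replicate 9 of cohort 9 (SD 1.57) and replicate 2 of cohort 2 (SD 1.40), against a median array SD of 0.943. Without them r was 0.475 for Ciita and 0.161 for H2-DMa.

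**Figure D3:**
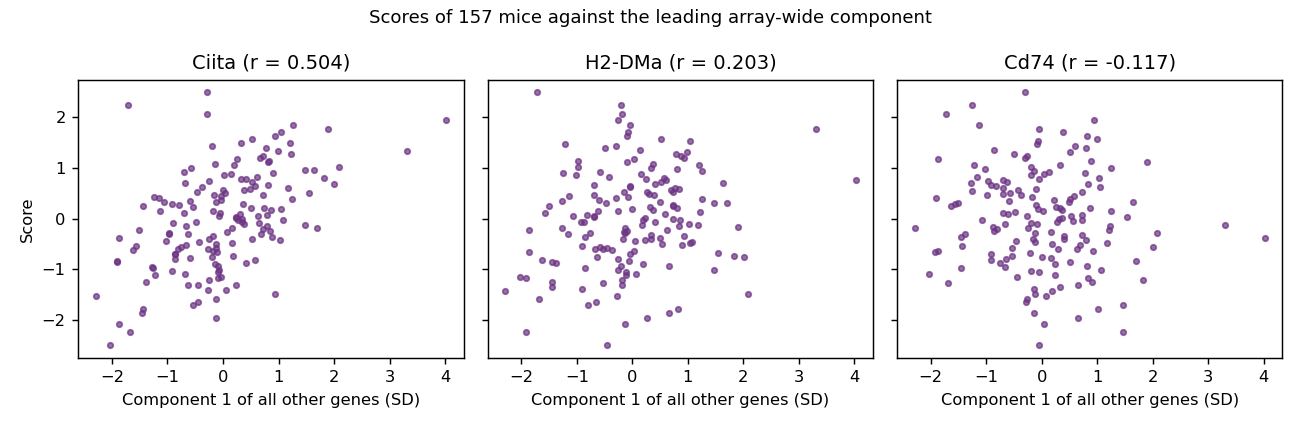
Scores of Ciita, H2-DMa and Cd74 (y axis, score units) against the leading component of all genes but the 6 (x axes, SD units), 1 point per mouse, 157 mice. Ciita climbs along the component (r = 0.504), H2-DMa less so (r = 0.203), and Cd74 has r = -0.117, with the 2 widest arrays at the far right.

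With the component as a further covariate, a choice made after it had been seen, the class II genes moved to the front of the genes that follow Ciita. The limma model then called 0.574% of genes positively associated with Ciita, with all 5 class II genes among these 133. Cd74 had the steepest slope of 23175 genes (0.59 ± 0.0842 SE, adjusted p = 3.94e-07), H2-Aa ranked 2 (0.57) and H2-Ab1 ranked 3 (0.54). H2-Eb1 ranked 32 (0.43) and H2-DMa ranked 99 (0.35). With batch alone as a covariate the ranks were 255 for Cd74, 563 for H2-Aa, 945 for H2-DMa, 1081 for H2-Ab1 and 1198 for H2-Eb1.

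The correlations of Ciita changed to match. After batch and the component were taken out, r with Ciita was 0.515 for Cd74, 0.491 for H2-Aa, 0.468 for H2-Ab1, 0.362 for H2-Eb1 and 0.306 for H2-DMa. The first 4 of these were higher than before and that of H2-DMa was lower. The difference between the adjusted and unadjusted values was not tested. What the component stands for was not tested.

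**Figure D4:**
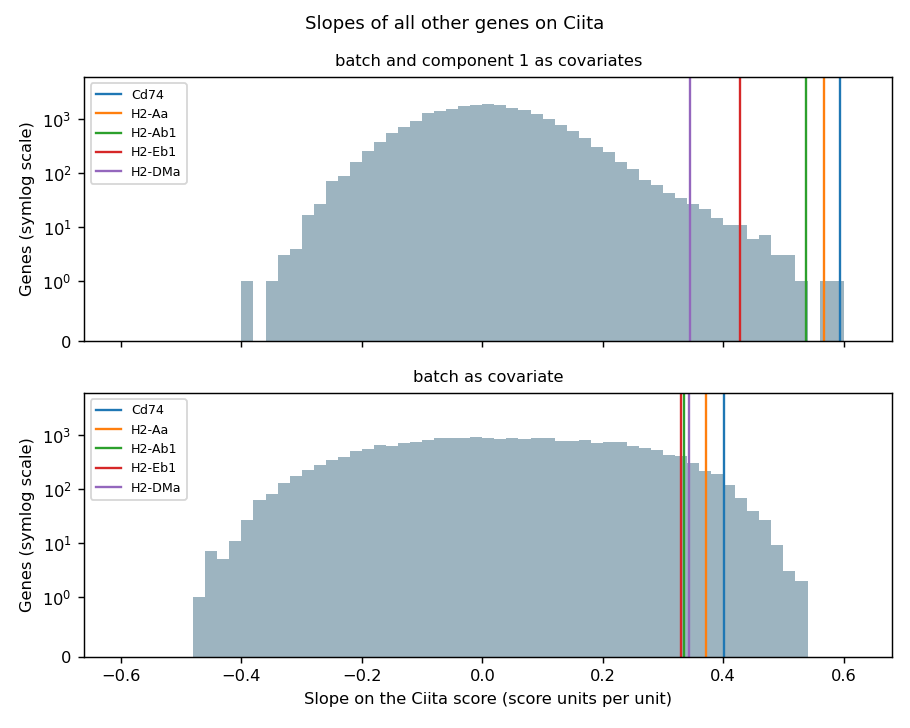
Distribution over 23175 genes of the slope on the Ciita score (x axes, score units per score unit; y axes, number of genes, linear below 1 and logarithmic above), with the leading component as a further covariate (top) and with batch alone (bottom). Vertical lines mark the 5 class II genes, and with the component Cd74 (0.59), H2-Aa (0.57) and H2-Ab1 (0.54) stand at the upper end.

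No difference with the time of killing passed for the 6 genes. None of them passed the test between the 10 kill cohorts (limma F test with batch as covariate, adjusted p of at least 0.351), where 2.45% of all 23176 genes did. With the block of strain numbers as a further covariate, limma called 0 genes in all in place of that share, with 2452 at an unadjusted p under 0.05 (19 genes with each gene's own spread). Cohort accounted for 0.781% of the variance of H2-Aa, 1.62% of that of H2-Ab1, 2.72% for H2-Eb1 and 2.49% for Cd74, against a median of 6.55% over all genes. For H2-Aa, 99.9% of genes had a larger share. H2-DMa had 9.57% and Ciita 5.55%, so these 2 were closer to the rest of the table. A gene with no difference between cohorts also has a share above 0, so the shares alone do not measure a cohort effect.

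H2-Aa ranged widely inside single cohorts. In cohort 2 its lowest, median and highest scores were -2.49, -0.306 and 2.49 (21 mice), and in cohort 7 they were -1.86, -0.224 and 1.70 (37 mice). Cohort 6 was the narrowest, at -0.810, 0.00795 and 0.833 (10 mice). The spread of the gene over the study was thus found again inside most cohorts.

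H2-DMa had the lowest p-values over time, and they did not pass adjustment. It averaged -0.150 ± 0.912 in cohorts 7 to 10 (SD, n = 84) and 0.173 ± 1.02 in cohorts 1 to 6 (SD, n = 73). The batch-adjusted difference was -0.38 ± 0.158 (SE; limma unadjusted p = 0.0153, adjusted p = 0.159), where 4.79% of genes were called. Its slope over kill day was -0.18 ± 0.0898 score units per 100 days (limma adjusted p = 0.307), where 3.49% of genes were called. In cohort 7 its scores ran from -2.49 over a median of -0.442 to 1.58, and in cohort 2 from -0.976 over 0.569 to 2.49, so the 2 cohorts overlapped over most of their range. The other 5 genes had unadjusted p-values of at least 0.252 for late against early cohorts.

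**Figure D5:**
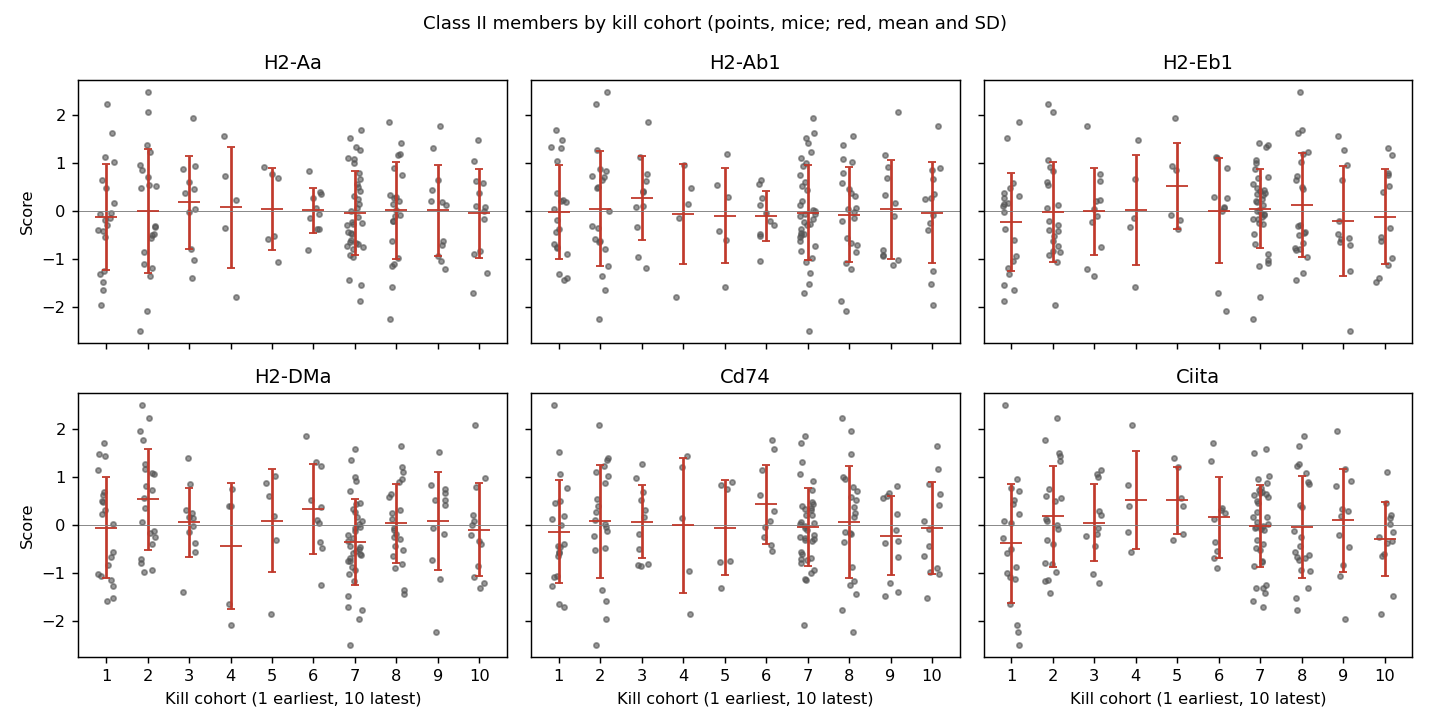
Scores of the 6 genes (y axes, score units) in kill cohorts 1 to 10 (x axes), 1 point per mouse, with red bars at the cohort means and whiskers of 1 SD. The cohorts overlap for every gene, and the mean of H2-DMa is -0.352 in cohort 7 and 0.535 in cohort 2.

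Array batch and strain number gave no call either. No class II gene passed between hybridization batches (limma adjusted p of at least 0.168), where 12.2% of genes were called. None passed between the 6 blocks of strain numbers (adjusted p of at least 0.457), where 0.652% of genes were called. With cohort as a covariate, the count was 0 genes in place of 151 (1667 at an unadjusted p under 0.05, limma). For fluidic station limma called 0% of all genes, 2634 of them having an unadjusted p under 0.05, and no class II gene among these. With a single mouse per strain, p-values rest on differences between single mice, and effects of strain, of environment and of the array cannot be told apart in them.

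Few genes outside the set followed all 6. The highest mean r with the 6 was 0.543, for ENSMUSG00000038642, which has no symbol in the tables used here, with r = 0.728 to Cd74, 0.613 to H2-Aa and 0.370 to Ciita. That mean lay above those of 3 of the 6 genes with their 5 partners, namely H2-DMa, H2-Eb1 at 0.474 and Ciita at 0.355. The median over the other 23170 genes was 0.00212. The genes running most against the set were ENSMUSG00000036291, with a mean r of -0.284, and ENSMUSG00000026618, with a mean of -0.255. No gene had r of -0.5 or below with any of the 6, while 60 genes outside the set had r of at least 0.5 with Cd74, 19 with H2-Aa, 17 with Ciita, 16 with H2-Ab1, 2 with H2-DMa and 1 with H2-Eb1.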

How the data were processed

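Liver RNA of 157 mice was measured on Affymetrix arrays, 1 per mouse. A custom chip definition (NCBI 37, Ensembl 49) joined probes into Ensembl genes, per the series design text, and RMA and affy are named, per the submitters' processing notes, without versions. Each deposited value is a score of 1 gene in 1 mouse. All 23176 rows equalled, within 6e-05, the normal quantile of a mouse's rank divided by the highest rank plus 1. No label describes this rank step, which removes level and spread. The number of arrays limits the precision.

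The file holds identifiers only. Symbols of the 6 genes came with the list of genes, and no table used here pairs other identifiers with symbols. The lists of pathway genes and cell markers and the naming rule that needed symbols were therefore not used. Identifiers are given instead for the highest mean r, the highest r with H2-Eb1 and the 2 lowest mean r, a choice made after the values were seen. The genes and lists were chosen with earlier results of these data known.

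Mice were grouped by kill date, dates at most 3 days apart forming 1 cohort. Strain numbers were put in 6 blocks of 1000. The labels give 8 hybridization batches, while the series text speaks of 6. Replicate numbers only name arrays.

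Linear models used limma 3.58.1 in R 4.3.3 (lmFit, eBayes with trend), with Benjamini-Hochberg adjustment over all genes and a threshold of 0.05. Batch was a covariate for cohort, trend, late against early cohorts and associations. Cohort was a covariate for batch, and both for station. The prior degrees of freedom of the reported fits without the leading component were infinite, so each gene was tested there with a shared spread. With the component as a covariate they were finite (103.9 for Ciita), and a gene's own spread entered in part. Fits with its own spread were added after seeing the data. Correlations used Pearson's r with Fisher's interval and 100000 permutations (Python 3.11.15, numpy 2.4.6, scipy 1.17.1, pandas 2.3.3). In data simulated over 23176 genes, 99 of 100 genes changed by 1 SD between late and early cohorts were recovered and 75 of 100 changed by 0.75 SD (13 false calls). For the test between kill cohorts, 60 of 100 genes shifted by 1 SD in cohort 7 alone were recovered. With a shift of 1.5 SD there it was 100 of 100 (7 false calls). For association with Cd74, 99 of 100 genes at r = 0.5 and 43 of 100 at r = 0.3 were recovered (3 false calls).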

Additional observations from a re-analysis of the deposited data

How the results depend on the processing

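Of 202 alternatives for the main counts, 187 stayed within 1.5 times the reported value. Many of these set 0 class II genes beside 0, so that share says little about how firm the other counts are. No class II gene was called for cohort, trend, late against early cohorts, batch, strain block or station under any alternative run, and leaving out each of the 5 mice of cohort 4 in turn gave 0 to 0 of the 6 genes. With the leading component as a further covariate, genes associated with Ciita numbered 138 in place of 7593, those with H2-Ab1 given Cd74 16 in place of 10, and those with Cd74 given H2-Ab1 184 in place of 115. For H2-Ab1 given Cd74 there were 6 genes without the 2 widest arrays and 17 with each gene's own spread, and 1 class II gene in place of 0 without trend, with the component, or with its own spread. With its own spread, Cd74 given H2-Ab1 had 1 class II gene in place of 0 and H2-Aa given H2-Ab1 had 2 in place of 1. The cause of these shifts was not tested. With the block of strain numbers as a covariate, limma called 0 of all genes for cohort, trend and late against early cohorts, in place of 2.45%, 3.49% and 4.79% (2452, 1357 and 1622 at an unadjusted p under 0.05), and with cohort as a covariate 0 for block, in place of 151 (1667 unadjusted). With each gene's own spread the 4 counts were 19, 0, 0 and 0. Of the 15 pairs, 5 passed within batch 2, 6 within batch 5, 9 within batch 6, 4 within batch 7 and 7 within batch 8, where 11 to 24 mice remain. Of 240 alternatives for single pairs, 187 kept direction and call, 51 within batches kept direction without passing, and 2 turned negative within a batch: H2-Eb1 and Ciita at -0.0168 and H2-DMa and Ciita at -0.0405. Alternatives with the mean of a marker list were not run, since no list could be matched. The component, the widest arrays, the robust prior and each gene's own spread were chosen after seeing the data. No paired analysis was possible because the labels number no replicates, and the numbers given here are names alone.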
